A study of Mus musculus with 4 samples.

Results

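The miR-17 to 92a cluster is a group of microRNAs (miRNAs) cut from 1 long transcript of mouse chromosome 14. Its members were chosen by name and are 9 of the 1152 entries in the deposited tables: miR-17-5p, miR-17-3p, miR-18a-5p, miR-18a-3p, miR-19a-3p, miR-20a-5p, miR-19b-3p, miR-92a-1-5p and miR-92a-3p. The scarce arms miR-20a-3p and miR-19b-1-5p, from the same hairpins, were listed in the tables but are not among the 9. Small RNA was sequenced from the aortas of wild type C57BL/6 mice, an inbred laboratory strain, at 12 weeks of age, to profile miRNAs in the vascular calcification of chronic kidney disease. There were 2 libraries labelled CKD and 2 labelled Sham, each made from RNA of 4 pooled samples. In the labelled CKD model, kidney tissue was removed by surgery, and the mice received a high-phosphate diet and salt in their drinking water. Both groups carry the same wording of this treatment in the labels, and the sources used here do not say what the Sham operation and diet were. Nothing states that the pools of a group came from separate animals, so each p-value measures only the spread between these libraries, which may be technical.

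A miRNA hairpin is cut into a pair of arms, named 5p and 3p. Usually 1 arm, the guide, is kept in the silencing complex and pairs with messenger RNAs through its seed, bases 2 to 8, while the other, the passenger, is largely degraded. The cluster's host transcript is induced by MYC in dividing cells, and the cluster is best known as an oncogene of lymphocytes that is also needed for normal heart, lung and B cell development. In blood vessels, its members have been studied in endothelial cells, where miR-92a restrains vessel growth, and in smooth muscle cells, where the cluster bears on proliferation.

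The host gene, Mir17hg, is annotated as a long non-coding RNA gene at chr14:115042879-115046727 on the plus strand (GRCm38, GENCODE vM21). Its 6 hairpins all lie in exon 2 and span 836 bases. In order they are Mir17 at chr14:115043671-115043754, Mir18 at chr14:115043851-115043946, Mir19a at chr14:115044000-115044081, Mir20a at chr14:115044157-115044263, Mir19b-1 at chr14:115044305-115044391 and Mir92-1 at chr14:115044427-115044506. A pair of further hairpins on the minus strand of chromosome X, Mir92-2 at chrX:52741838-52741928 and Mir19b-2 at chrX:52741983-52742066, yield the same mature miR-92a-3p and miR-19b-3p. Reads of these members therefore cannot be assigned to 1 locus, whereas miR-92a-1-5p is annotated to the chromosome 14 hairpin. All 9 members had a mature sequence in RefSeq (GRCm38.p6). They are shown 5′ to 3′ with the seed in capitals, because the seed decides which members share targets and the rest decides which members the counting could mix up.
miR-17-5p: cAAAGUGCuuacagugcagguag
miR-20a-5p: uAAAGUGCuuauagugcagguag
miR-18a-5p: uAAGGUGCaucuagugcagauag
miR-19a-3p: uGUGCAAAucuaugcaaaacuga
miR-19b-3p: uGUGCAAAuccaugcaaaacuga
miR-92a-3p: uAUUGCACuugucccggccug
miR-17-3p: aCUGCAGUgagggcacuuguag
miR-18a-3p: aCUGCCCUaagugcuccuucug
miR-92a-1-5p: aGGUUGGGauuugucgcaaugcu

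The guides fall into 4 seed groups. miR-17-5p and miR-20a-5p share AAAGUGC, miR-18a-5p has AAGGUGC, miR-19a-3p and miR-19b-3p share GUGCAAA, and miR-92a-3p has AUUGCAC. Counted from 1 at the 5′ end, miR-17-5p and miR-20a-5p differ by C1U and C12U, and miR-19a-3p and miR-19b-3p differ by U11C alone. The sources used here do not say how reads matching several such miRNAs were divided, so levels of these close relatives are uncertain to that extent. The mature forms are 21 to 23 bases long, so 1 read covers a whole molecule and levels are compared between miRNAs as counts per 1000000 (CPM) with no length correction. Adaptors join more readily to some sequences than to others, which bears on levels between miRNAs more than on 1 miRNA between libraries.

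The guides of miR-17, miR-20a and miR-19b were the most abundant members by mean in both groups. miR-17-5p, which targets regulators of the cell cycle, stood at 197 and 193 CPM in the CKD libraries, against 34.3 and 63.6 CPM in the Sham libraries. miR-20a-5p, its seed relative, stood at 186 and 177 CPM in CKD, against 34.0 and 65.4 CPM in Sham. The CKD libraries lay above both Sham libraries for each, and the Sham libraries differed between themselves more than the CKD libraries did. miR-19b-3p, known as a main oncogenic member of the cluster in mouse B cell lymphoma, stood at 244 and 235 CPM in CKD, against 52.5 and 95.2 CPM in Sham. Its seed relative miR-19a-3p was lower throughout, at 16.0 and 20.5 CPM in CKD, against 3.42 and 8.0 CPM in Sham. miR-18a-5p, a repressor of the matrix genes Ctgf and Thbs1 in tumour cells, stood at 7.64 and 8.04 CPM in CKD, against 0.46 and 2.55 CPM in Sham. The value of 0.46 CPM rests on 8 reads. Both miR-19a-3p and miR-18a-5p were again highest in the CKD libraries.

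miR-92a-3p had the largest ratio between libraries of the same group among the 9 members. It stood at 30.5 and 205 CPM in the CKD libraries, against 5.71 and 19.9 CPM in the Sham libraries. CKD 1 lay closer to Sham 2 than to CKD 2, and CKD 2 reached the level of miR-17-5p. Among the passengers, miR-17-3p stood at 13.3 and 11.5 CPM in CKD, against 4.91 and 7.35 CPM in Sham. miR-92a-1-5p stood at 1.88 and 2.88 CPM in CKD, against 0.23 and 0.47 CPM in Sham. miR-18a-3p stood at 0.46 and 1.62 CPM in CKD, against 0.11 and 0.30 CPM in Sham, the last pair resting on 2 and 5 reads. Both miR-18a-3p and miR-92a-1-5p rest on few reads, from 2 to 48 a library.

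**Figure D1:**
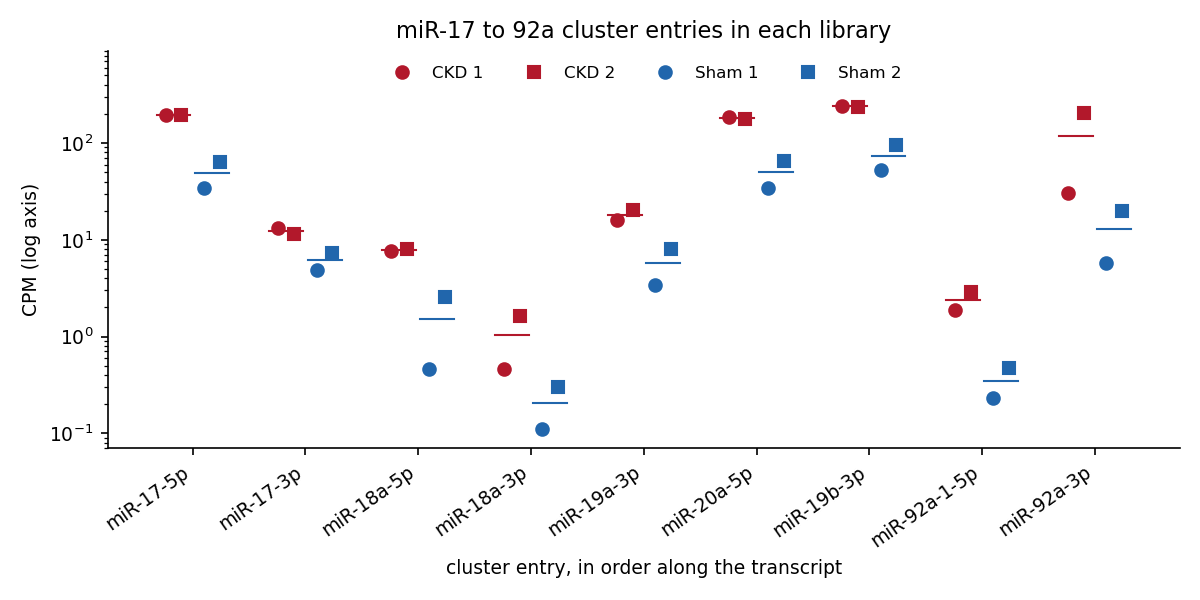
CPM of the 9 cluster entries on a log axis, with CKD libraries in red left of Sham libraries in blue, and a bar at each group's mean. Each entry's CKD points lie above its Sham points, and the CKD points of miR-92a-3p, at 30.5 and 205 CPM, are the farthest apart among entries above 10 CPM.

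By group mean, miR-19b-3p came first at 240 ± 6.60 CPM in CKD and 73.8 ± 30.2 CPM in Sham (SD, n = 2 each). miR-17-5p followed at 195 ± 3.08 CPM in CKD and 49.0 ± 20.7 CPM in Sham, then miR-20a-5p at 181 ± 6.35 CPM in CKD and 49.7 ± 22.2 CPM in Sham. The order of this last pair turned over between the groups, and in Sham they differed by less than their spread. miR-92a-3p averaged 118 ± 123 CPM in CKD and 12.8 ± 10.0 CPM in Sham. Its SD in CKD exceeded its mean, so its place in the order cannot be separated there from those of its neighbours. miR-19a-3p averaged 18.3 ± 3.14 CPM in CKD and 5.71 ± 3.24 CPM in Sham. miR-17-3p averaged 12.4 ± 1.29 CPM in CKD and 6.13 ± 1.73 CPM in Sham, a mean within the spread of miR-19a-3p in Sham. The remaining 3 were miR-18a-5p, miR-92a-1-5p and miR-18a-3p, in that order in both groups.

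On the deposited scale all 9 members had their 2 CKD values above their 2 Sham values, but so did 91.2% of the 479 entries with a mean of at least 1 CPM. limma was fitted to log2(CPM + 1) over those 479 entries. The filter kept 8 of the 9 members and left out miR-18a-3p. miR-92a-1-5p passed it only through the CKD libraries, so its difference was partly fixed by the filter. All 8 were called higher at a Benjamini-Hochberg adjusted p threshold of 0.05, against a background of 82.9% of entries called higher. The members' median difference, CKD minus Sham, was 1.83, beside 1.34 for all 479 entries. Among the guides, miR-18a-5p differed by 1.96 (SE 0.39), miR-20a-5p by 1.92 (SE 0.43), miR-19b-3p by 1.75 (SE 0.43) and miR-19a-3p by 1.60 (SE 0.37), with limma adjusted p-values of 0.00165 to 0.00376. The passenger miR-92a-1-5p differed by 1.31 (SE 0.34, limma adjusted p = 0.00473). Without CKD 1, 3 of 8 members were called higher, against 29.3% of entries. Without CKD 2 it was 4 of 7 against 52.7%, and without Sham 1 it was 5 of 8 against 58.0%.

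The shared shift moved with the most abundant aortic miRNA. miR-143-3p, a marker of smooth muscle, stood at 411359 and 407824 CPM in CKD, against 798183 and 725182 CPM in Sham. The other 3 miRNAs of the smooth muscle list went the other way on the same scale, with miR-145a-5p at 67970 and 75726 CPM in CKD, against 33419 and 47242 CPM in Sham. Since CPM values sum to 1000000 in every library, a smaller share for this miRNA leaves more for all others. In pooled tissue, fewer cells of a type and less RNA per cell cannot be told apart. A second scale, TMM, divides out the shift shared by most entries and was computed from the reads recovered from the CPM. It gave factors of 1.81 and 1.66 for CKD and 0.479 and 0.696 for Sham. The recovered totals were 17532748 and 16658810 reads in CKD and 17520690 and 16878392 reads in Sham.

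With TMM scaling none of the 8 tested members was called by limma, where 7.72% of entries were. At an unadjusted p under 0.05 there were 2 of 8, miR-17-5p and miR-17-3p, in opposite directions, against 25.9% of all entries. On the recovered reads, edgeR's quasi-likelihood test called 0 members and 6.47% of entries, and DESeq2 called 0 members and 20.4% of entries with an adjusted p. Each of them had 2 of 8 members under 0.05 before adjustment, where 24.4% of entries were with edgeR and 25.3% with DESeq2. With edgeR these were miR-17-5p and miR-17-3p, and with DESeq2 they were miR-17-5p and miR-92a-3p. In the limma fit with TMM scaling, the members' median difference was 0.41, beside -0.00096 for all entries.

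The 8 tested members differed in how they stood on the TMM scale. miR-17-5p had 109 and 116 TMM-scaled CPM in CKD, against 71.7 and 91.5 in Sham, which differed by 0.47 on the log2 scale (SE 0.17, limma adjusted p = 0.171). On the deposited scale its difference was 2.04 (SE 0.43, limma adjusted p = 0.00197). miR-20a-5p had 103 and 107 TMM-scaled CPM in CKD, against 71.1 and 94.0 in Sham, a difference of 0.35 (SE 0.18, limma adjusted p = 0.292). For both, the CKD libraries lay above the Sham libraries, as they also did for miR-18a-5p and miR-92a-1-5p and for 28.0% of all entries. miR-18a-5p differed by 0.87 (SE 0.45, limma adjusted p = 0.302), with 4.22 and 4.84 TMM-scaled CPM in CKD, against 0.961 and 3.67 in Sham. miR-19b-3p had 135 and 141 TMM-scaled CPM in CKD, against 110 and 137 in Sham, so its groups overlapped, with a difference of 0.17 (SE 0.16, limma adjusted p = 0.50). miR-19a-3p overlapped as well, at 8.86 and 12.3 in CKD, against 7.15 and 11.5 in Sham, with a difference of 0.18. That difference was -0.15 without Sham 1, -0.03 without CKD 2, 0.51 without Sham 2 and 0.39 without CKD 1, and that of miR-19b-3p was -0.0065 without Sham 1 and 0.34 without Sham 2. The other differences also moved when a Sham library was left out. Without Sham 1 they were 0.28 for miR-17-5p, 0.13 for miR-20a-5p and 0.24 for miR-18a-5p, and without Sham 2 they were 0.56 for miR-20a-5p and 1.56 for miR-18a-5p.

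The passengers of miR-17 and miR-92a stood on opposite sides of 0 with TMM scaling. miR-17-3p had 7.35 and 6.91 TMM-scaled CPM in CKD, against 10.3 and 10.6 in Sham. It was the member with both CKD libraries below both Sham libraries, as 31.5% of entries were, and its difference was -0.49 (SE 0.13, limma adjusted p = 0.102). On the deposited scale the same entry was called higher, by 0.93 (SE 0.31, limma adjusted p = 0.0153), rank 367 of 479 from the highest. Its direction therefore depends on the scale. miR-92a-1-5p had 1.04 and 1.73 TMM-scaled CPM in CKD, against 0.481 and 0.676 in Sham, a difference of 0.58 (SE 0.26, limma adjusted p = 0.264). miR-18a-3p, not tested, had 0.254 and 0.976 in CKD, against 0.230 and 0.431 in Sham, and its groups overlapped.

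**Figure D2:**
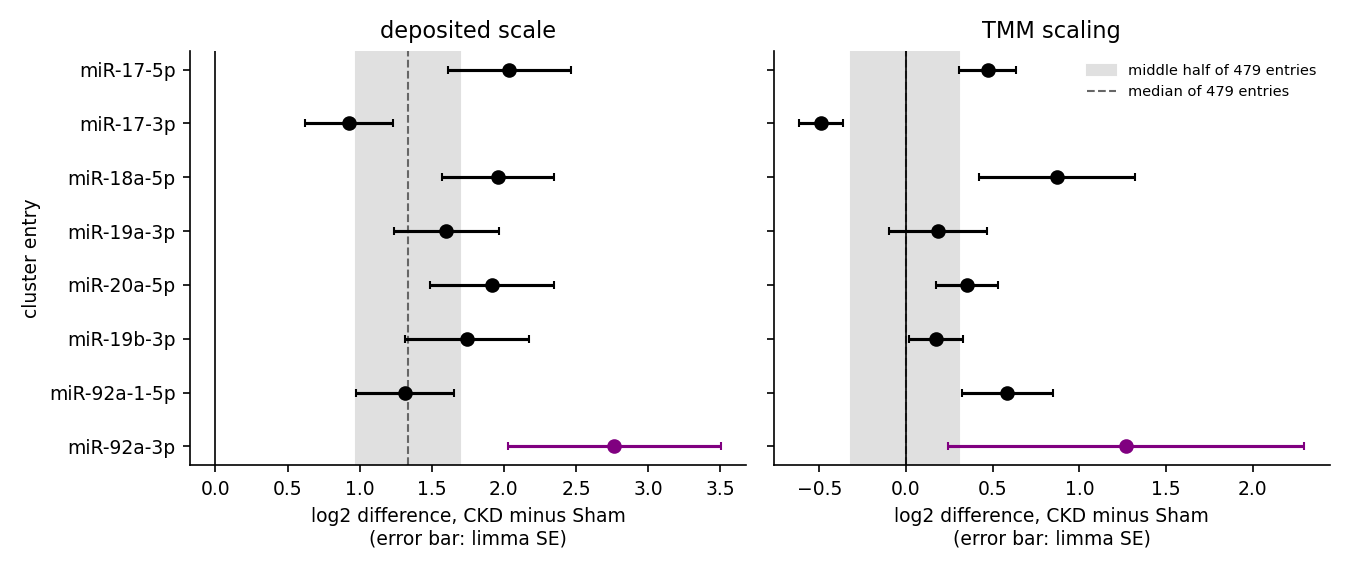
Log2 difference, CKD minus Sham, of the 8 tested members on the deposited and TMM scales, with limma standard errors, beside the median and the middle part of all 479 entries. The members' median is 1.83 in deposited CPM and 0.41 after TMM scaling, and miR-17-3p changes sign.

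miR-92a-3p had the largest member difference on both scales and the widest error. On the deposited scale it was 2.77 (SE 0.74, limma adjusted p = 0.00541), rank 8 of 479 from the highest. The moderated SE borrows from other entries, and the SE from its own 4 libraries was 1.58. With TMM scaling it had 16.9 and 123 TMM-scaled CPM in CKD, against 11.9 and 28.5 in Sham. The groups overlapped, since CKD 1 lay below Sham 2, and the difference was 1.27 (SE 1.03, limma adjusted p = 0.451). Without CKD 2 the TMM difference was -0.12, without CKD 1 it was 2.65 and without Sham 1 it was 0.65. Without CKD 2 the deposited difference was 1.41 and no longer called (limma adjusted p = 0.0778). It also lost its call without Sham 1 (1.95, adjusted p = 0.240) and without Sham 2 (3.58, adjusted p = 0.0656).

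A ratio inside 1 library does not depend on library scaling. Per 100 reads of miR-17-5p, miR-20a-5p had 94.3 and 91.7 reads in CKD, against 99.2 and 103 in Sham, a span of 1.12-fold over the 4 libraries. miR-19b-3p had 124 and 122 reads in CKD, against 153 and 150 in Sham, a span of 1.26-fold. miR-19a-3p had 8.13 and 10.6 reads in CKD, against 9.98 and 12.6 in Sham, a span of 1.55-fold. These 3 guides thus varied little against miR-17-5p, though for miR-20a-5p and miR-19b-3p both CKD ratios lay below both Sham ratios. Outside the cluster, the ratio to miR-17-5p spanned 1.30-fold for miR-92b-3p, 1.46-fold for miR-25-3p and 17.6-fold for miR-363-3p. A steady ratio was therefore not particular to the cluster. miR-18a-5p had 3.88 and 4.17 reads in CKD, against 1.33 and 4.00 in Sham, and its low value is that of the 8 reads in Sham 1. miR-92a-3p had 15.5 and 106 reads in CKD, against 16.6 and 31.2 in Sham, a span of 6.86-fold. Its ratio was alike in CKD 1 and Sham 1 and highest in CKD 2.

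**Figure D3:**
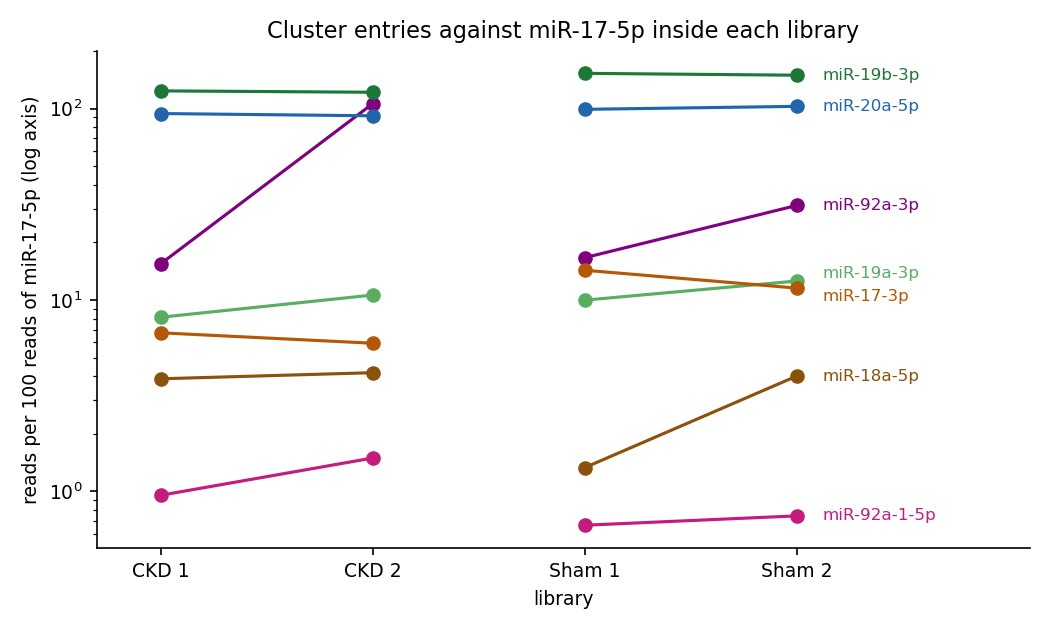
Reads of 7 cluster entries per 100 reads of miR-17-5p in each library, on a log axis. The lines of miR-20a-5p and miR-19b-3p are nearly level, while miR-92a-3p reaches 106 in CKD 2, against 15.5 in CKD 1.

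Set against the mean of its 5 guide mates (miR-17-5p, miR-18a-5p, miR-19a-3p, miR-20a-5p and miR-19b-3p), miR-92a-3p differed by -1.09 on the log2(CPM + 1) scale in CKD 1 and by 1.57 in CKD 2. It differed by -0.99 in Sham 1 and by -0.35 in Sham 2. The groups overlapped, with means of 0.24 ± 1.88 in CKD and -0.67 ± 0.46 in Sham (SD, n = 2 each). The difference was 0.92 (SE 1.37), with a two-sided exact permutation p of 1, where the smallest p this design allows is 0.333. Without CKD 2 it was -0.41 and without CKD 1 it was 2.24. A limma fit of all entries relative to the same mates called 9.81% of entries and did not call miR-92a-3p (difference 0.92, SE 0.37, adjusted p = 0.0951). That fit pooled the spread wholly over entries, and the SE from the 4 libraries alone was 1.37. The call depended on settings: the limma adjusted p was 0.0130 with a pseudocount of 10 but 0.338 with a pseudocount of 0.1. It was 0.0430 against miR-17-5p alone but 0.475 against miR-18a-5p alone.

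miR-92a-3p supplied 4.38% of the 9 members' reads in CKD 1 (Wilson 95% interval 4.03 to 4.76) and 24.0% in CKD 2 (23.3 to 24.7). It supplied 4.21% in Sham 1 (3.47 to 5.09) and 7.56% in Sham 2 (6.81 to 8.37). The intervals cover counting error only. The difference between the CKD libraries therefore went beyond counting, while CKD 1 and Sham 1 were indistinguishable at this depth. The 9 members together held 0.0697% and 0.0854% of all listed reads in CKD, against 0.0136% and 0.0263% in Sham.

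The gap between the CKD libraries was uncommon among the entries compared. From CKD 1 to CKD 2 the miR-92a-3p CPM differed 6.71-fold. The ratio of CKD 2 to CKD 1 was taken over 459 entries. These had a mean of at least 1 CPM and reads in both CKD 1 and Sham 1. Entries without reads in CKD 1 or in Sham 1 were not counted. The ratio had a median of 0.893 and a 5th to 95th percentile range of 0.541 to 1.50. Among those entries, 5 had a ratio at least as large, namely miR-374c-3p, miR-363-3p, miR-486a-5p, miR-486b-5p and miR-92a-3p itself. These were singled out after their values were seen. The other guides of the cluster had CKD ratios of 0.952 to 1.28. Sham 2 over Sham 1 was 3.48 for miR-92a-3p, beside a median of 1.43 over the same 459 entries, and 1.81 to 5.54 for the other guides.

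Across the libraries, the profile of miR-92a-3p lay closest to that of miR-486. Likeness was measured as the Euclidean distance between centred log2(CPM + 1) profiles over the 4 libraries, among 248 other named entries with a mean of at least 10 CPM. The nearest were miR-486a-5p and miR-486b-5p, which hold equal values, at a distance of 0.50, then miR-15b-5p at 1.24, miR-451a at 1.47, miR-338-3p at 1.55 and miR-182-5p at 1.63. miR-486 and miR-451a are abundant in red cells and their precursors, and miR-144-3p, made from the same transcript as miR-451a, ranked 8 at 1.86. For the mean of the 5 guide mates the nearest was miR-221-5p at 0.13, followed by let-7f-2-3p, miR-409-5p, miR-362-5p, miR-335-5p and miR-23a-3p at up to 0.23. In that order miR-144-3p ranked 130, miR-451a 230 and miR-486a-5p 244. With only 4 libraries, this order describes these libraries and carries no test.

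Within the red cell list, miR-486 and, less steeply, miR-451a moved with this result. All 5 of its miRNAs were detected in every library, and their summed level, with the equal miR-486 entries counted once, was 1035 and 4804 CPM in CKD, against 219 and 841 CPM in Sham. miR-486a-5p stood at 445 and 3266 CPM in CKD, against 76.9 and 212 CPM in Sham. miR-451a stood at 510 and 1425 CPM in CKD, against 130 and 574 CPM in Sham. miR-144-3p stood at 52.9 and 62.8 CPM in CKD, against 6.28 and 24.1 CPM in Sham, and miR-144-5p at 27.2 and 49.5 CPM in CKD, against 6.39 and 30.5 CPM in Sham. Their ratios of CKD 2 to CKD 1, 1.19 and 1.82, were far from the 6.71 of miR-92a-3p, so the list as a whole did not share its step. Per 100 reads of miR-486a-5p, miR-92a-3p had 6.85 and 6.27 reads in CKD, against 7.42 and 9.38 in Sham, a span of 1.50-fold. Per 100 reads of miR-451a it had 5.98 and 14.4 in CKD, against 4.39 and 3.46 in Sham, a span of 4.16-fold, and per 100 reads of miR-144-3p the span was 5.65-fold. The narrow span against miR-486a-5p restates the profile distance by which that miRNA ranked nearest, so it is no further support. The part of red cell RNA in the miR-92a-3p level was not tested.

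Other marker lists did not set CKD 2 apart from CKD 1 in the same way. Leukocyte markers summed to 424 and 474 CPM in CKD, against 82.2 and 229 CPM in Sham. The endothelial pair miR-126a-3p and miR-126a-5p summed to 9989 and 9767 CPM in CKD, against 2899 and 3411 CPM in Sham. The smooth muscle list, 4 of 4 detected and far above the rest, summed to 485612 and 488708 CPM in CKD, against 833695 and 774989 CPM in Sham. The lower sum in CKD is that of miR-143-3p, since 3 of the 4 had both CKD libraries above both Sham libraries on the deposited scale. So did 91.2% of the 479 entries. With TMM scaling miR-143-3p (log2 difference -2.48), miR-145a-5p (-0.73) and miR-143-5p (-0.81) had both CKD libraries below both Sham libraries, as 31.5% of entries had. Only miR-145a-3p (0.22) had them above, as 28.0% of entries had. Liver, striated muscle and kidney or gut markers were present too, with miR-122-5p of hepatocytes at 161 and 56.0 CPM in CKD, against 1.43 and 25.5 CPM in Sham. Their part in the results was not tested.

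**Figure D4:**
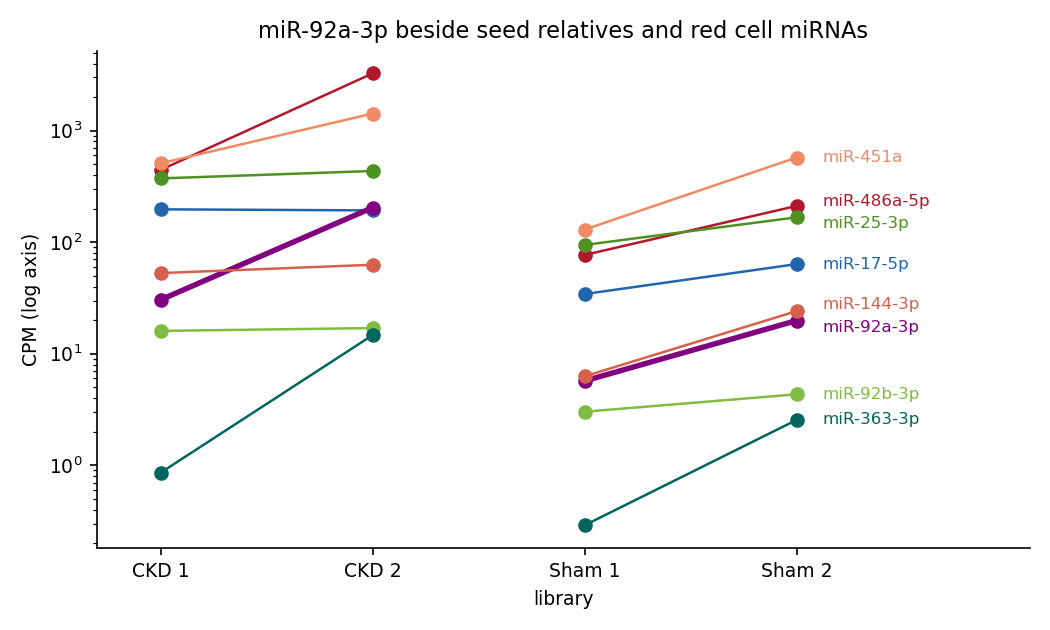
CPM by library, on a log axis, of miR-92a-3p, its seed relatives, miR-17-5p and red cell miRNAs. miR-92a-3p, miR-363-3p and miR-486a-5p are steep between CKD 1 and CKD 2, while miR-25-3p, miR-92b-3p, miR-144-3p and miR-17-5p are nearly level.

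The share of reads from the passenger arm is also free of library scaling. miR-17-3p made up 6.31% of reads from both arms of miR-17 in CKD 1 (Wilson 95% interval 5.57 to 7.15) and 5.61% in CKD 2 (4.89 to 6.44). It made up 12.5% in Sham 1 (10.3 to 15.2) and 10.4% in Sham 2 (8.75 to 12.2). The groups did not overlap, and neither did the intervals between groups. These intervals cover counting error only, and the libraries of a group differed beyond counting noise, so their separation adds no support. How many hairpins outside the cluster split in this way is not given here. The means were 5.96 ± 0.496% in CKD and 11.4 ± 1.53% in Sham (SD, n = 2 each), a difference of -5.47 percentage points. Its two-sided exact permutation p of 0.333 is the smallest this design allows. Leaving out each library in turn gave differences of -6.55 to -4.39 points, whose sign was fixed because the groups did not overlap.

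The other passengers had no such split. miR-18a-3p made up 5.63% and 16.8% of the miR-18a reads in CKD, against 20.0% and 10.4% in Sham, resting on 8 of 142, 27 of 161, 2 of 10 and 5 of 48 reads (difference -4.01 points, exact permutation p = 0.667). miR-92a-1-5p made up 5.81% and 1.39% of it and miR-92a-3p in CKD, against 3.85% and 2.33% in Sham (difference 0.51 points, exact permutation p = 1). In CKD 2 the guide of miR-92a was thus at its highest against this arm, which is annotated to the chromosome 14 hairpin. From CKD 1 to CKD 2 the arm itself differed 1.53-fold, on 33 and 48 reads. miR-20a-3p, the other arm of miR-20a, made up 2.10% and 1.70% in CKD, against 1.32% and 2.21% in Sham.

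**Figure D5:**
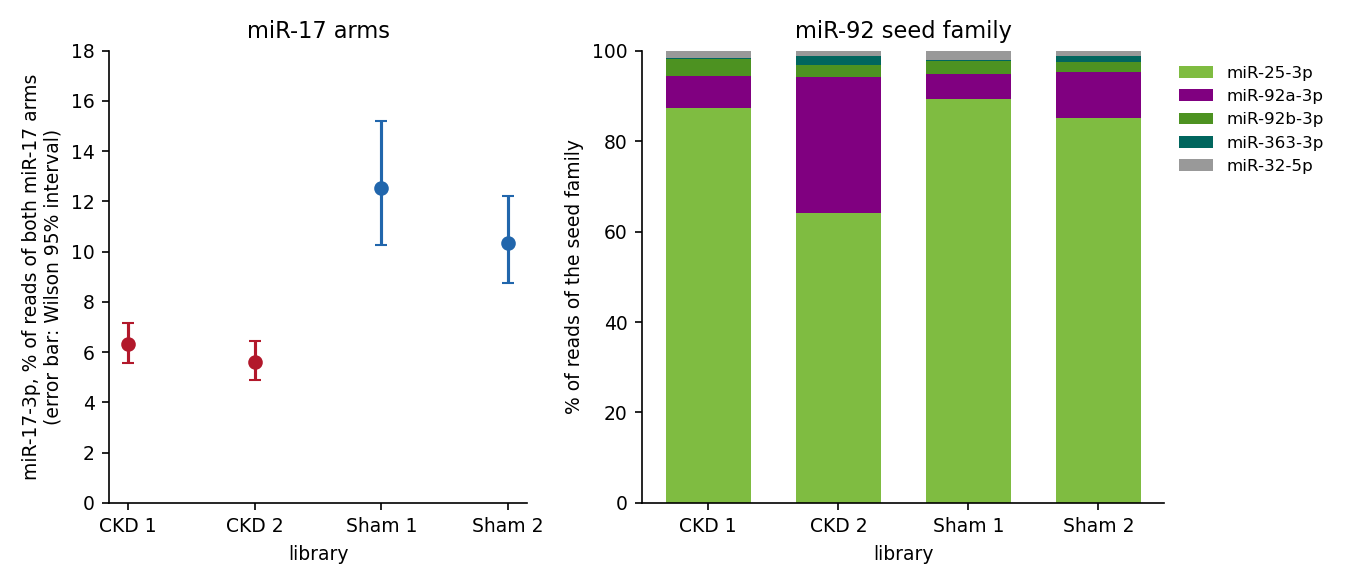
Left, miR-17-3p as a percent of reads from both miR-17 arms in each library, with Wilson 95% intervals: 6.31 and 5.61% in CKD, against 12.5 and 10.4% in Sham. Right, the makeup of the miR-92 seed family in each library, in percent, where miR-92a-3p supplies 30.1% in CKD 2 and 5.40 to 10.1% in the other libraries.

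Mammals carry paralogs of the cluster: miR-106a to miR-363 on chromosome X and miR-106b to miR-25 in an intron of Mcm7. The sequences below show how close the paralogs are to miR-92a-3p and miR-17-5p, with the seed in capitals.
miR-25-3p: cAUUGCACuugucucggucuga
miR-363-3p: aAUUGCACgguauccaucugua
miR-92b-3p: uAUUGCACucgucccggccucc
miR-106a-5p: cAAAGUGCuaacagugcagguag
miR-20b-5p: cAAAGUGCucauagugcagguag
miR-93-5p: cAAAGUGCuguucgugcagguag
miR-106b-5p: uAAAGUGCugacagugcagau

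Of 21 listed entries of the paralog clusters and of the remaining arms, 17 were in the tables and 11 passed the filter. On the deposited scale limma called 7 of the 11 higher and 0 lower (82.9% of all entries were called higher), and with TMM scaling it called 0, with 2 of 11 at an unadjusted p under 0.05, against 25.9% of entries. Of the 11, miR-20a-3p and miR-25-5p passed the filter only through the CKD libraries and miR-106a-5p only through the Sham libraries, so the count is no support for a direction. Their median difference was 1.34 in deposited CPM and 0.09 after TMM scaling, beside 1.34 and -0.00096 for all 479 entries. Without CKD 1 the deposited count was 4 of 10, against 29.3% of entries.

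The guides made within Mcm7 differed on the deposited scale by about as much as the cluster's guides. miR-93-5p stood at 234 and 232 CPM in CKD, against 59.0 and 104 CPM in Sham (log2 difference 1.56, limma adjusted p = 0.00635). miR-106b-5p stood at 186 and 139 CPM in CKD, against 31.2 and 58.2 CPM in Sham (1.89, limma adjusted p = 0.00274). miR-25-3p stood at 373 and 435 CPM in CKD, against 94.6 and 167 CPM in Sham (1.67, limma adjusted p = 0.00479). The CKD libraries were above the Sham libraries for all 3, as for 91.2% of the 479 entries. CKD 2 was not set apart from CKD 1 as it was for miR-92a-3p. With TMM scaling the differences were -0.02 for miR-93-5p, 0.32 for miR-106b-5p and 0.09 for miR-25-3p. The groups then overlapped for all 3, and limma called none of them.

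The chromosome X paralogs were scarce and did not pass the test. miR-106a-5p, which differs from miR-17-5p by U10A, stood at 0.68 and 0.84 CPM in CKD, against 0.34 and 2.43 CPM in Sham. miR-20b-5p, which differs from miR-20a-5p by U1C and U10C, stood at 0.91 and 4.68 CPM in CKD, against 0.40 and 4.92 CPM in Sham. miR-363-3p stood at 0.86 and 14.7 CPM in CKD, against 0.29 and 2.55 CPM in Sham (1.34, limma adjusted p = 0.117). The groups overlapped for all 3, and the second library was the higher in each group. miR-363-3p, which is made on chromosome X beside the other hairpin of miR-92a, was thus among the few entries that shared the step between the CKD libraries. Its values of 0.86 CPM in CKD 1 and 0.29 CPM in Sham 1 rest on few reads. From CKD 1 to CKD 2, miR-20b-5p differed 5.14-fold and miR-106a-5p 1.24-fold. Per 100 reads of miR-363-3p, miR-92a-3p had 3567 and 1391 reads in CKD, against 2000 and 779 in Sham, so the ratio itself was not constant. Which locus gave the step of miR-92a-3p was not tested.

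By seed, the miR-92 family of 5 entries summed to 428 and 679 CPM in CKD, against 106 and 196 CPM in Sham. miR-25-3p supplied 87.2% and 64.1% of it in CKD, against 89.4% and 85.1% in Sham, and miR-92a-3p supplied 7.13% and 30.1% in CKD, against 5.40% and 10.1% in Sham. miR-92b-3p, which differs from miR-92a-3p by U10C and G21C over their shared length and is 22 bases long where miR-92a-3p is 21, stood at 16.0 and 16.99 CPM in CKD, against 3.02 and 4.33 CPM in Sham, with no step between the CKD libraries. The miR-17 family of 6 entries summed to 805 and 746 CPM in CKD, against 159 and 299 CPM in Sham. The cluster supplied 47.6% and 49.6% of that sum in CKD, against 42.9% and 43.2% in Sham, and miR-93-5p and miR-106b-5p supplied most of the rest. The miR-19 seed was carried by cluster members alone among the entries matched to a sequence, and summed to 260 and 255 CPM in CKD, against 55.9 and 103 CPM in Sham.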

How the data were processed

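No label names the unit. Values deposited by the authors carry 2 decimals and add up to about 1000000 a library, and were read as CPM. In 3 of the 4 deposited files the authors' names stand above the values in 1 column, a layout with no usual unit (other), and were paired with the values by position. Per the submitters' processing notes, Bowtie and GRCm38 were used. The sources used here give neither the counting nor the annotation, nor how reads matching several miRNAs were handled. Whole reads were recovered from the steps of the CPM: 100% of non-zero values were whole within 0.005 CPM. A floor of 3 reads is 0.171 to 0.180 CPM. No molecular identifiers are described, so intervals cover counting error only.

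limma 3.58.1 (R 4.3.3, mean-variance trend) was fitted to log2(CPM + 1) of entries with a mean of at least 1 CPM, by group alone, two-sided, with Benjamini-Hochberg adjustment over 479 entries and a threshold of 0.05. This scale understates changes of low entries. TMM factors came from edgeR 4.0.16 on the reads of those 479 entries. edgeR's quasi-likelihood test and DESeq2 1.42.0 on the recovered reads were alternatives. Tests were tested on simulated counts. Wilson intervals used scipy 1.17.1, and exact permutation tests were run in R 4.3.3. The libraries of a group differed beyond counting noise (chi-square divided by its degrees of freedom was 367 in CKD and 515 in Sham), and no batch is labelled. Named miRNAs were the members, the listed paralogs and other arms, entries sharing a member's seed, marker miRNAs, and the 6 nearest profiles. Members and lists were chosen with earlier results of these data known. RefSeq gave a mature sequence for 900 of 1079 names.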

Additional observations from a re-analysis of the deposited data

How the results depend on the processing

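Depth limits miR-18a-3p, miR-92a-1-5p, the chromosome X paralogs and, in Sham, miR-18a-5p, and 2 libraries a group limit everything else. On the deposited scale 8 members were called. The count was 4 of 9 with no filter (26.6% of entries called higher), 5 of 5 with a mean of at least 10 CPM (89.4%), 0 with edgeR (1.67%), 0 with DESeq2 (7.43%), 0 with upper-quartile scaling (1.04%), 0 with library totals that leave out miR-143-3p (2.71%), and 3 to 7 when each library was left out (29.3 to 77.0%). For the paralog list the count of 7 fell to 0 under the same 4 changes of scale or test, and was 4 to 7 over the libraries left out. With TMM scaling 0 members were called under every alternative that kept all 4 libraries, where 1.82 to 20.4% of entries were called. Runs without 1 library left a single library in a group, so their calls are not read here. Of the paralog list, 1 of 5 was called with a mean of at least 10 CPM (11.3% of entries). miR-17-3p turned from 0.93 on the deposited scale to -0.55 with edgeR, -0.51 with DESeq2, -0.57 with upper-quartile scaling and -0.27 without miR-143-3p in the totals. With TMM scaling, leaving out libraries turned miR-19a-3p (-0.15 without Sham 1, -0.03 without CKD 2), miR-19b-3p (-0.0065 without Sham 1, range to 0.34) and miR-92a-3p (-0.12 without CKD 2, range to 2.65). The cause of these turns was not tested.

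miR-92a-3p minus its guide mates, 0.92, ranged over -0.41 to 2.24 when each library was left out, and kept its sign under the other alternatives. Relative to the mates, the limma fit (adjusted p = 0.0951) passed the threshold with a pseudocount of 10 (0.77, adjusted p = 0.0130). It also passed with the other 7 members that passed the filter as mates (1.12, 0.00263) and with summed mates (0.87, 0.0378). So it did against miR-17-5p alone (0.73, 0.0430) and miR-20a-5p alone (0.85, 0.0461). It did not pass with a pseudocount of 0.1 (0.83, adjusted p = 0.338) or without miR-19b-3p among the mates (0.89, 0.153). Nor did it against miR-18a-5p (0.81, 0.475), miR-19a-3p (1.17, 0.212) or miR-19b-3p (1.02, 0.101) alone. The difference was 2.24 without CKD 1, 1.24 without Sham 2, 0.59 without Sham 1 and -0.41 without CKD 2. The passenger share of miR-18a-3p, -4.01 points, ranged over -9.57 to 1.56 when each library was left out, turning to 0.785 without Sham 1 and 1.56 without CKD 1. That of miR-92a-1-5p, 0.51 points, ranged over -1.70 to 2.72, turning to -0.247 without Sham 2 and -1.70 without CKD 1. That of miR-17-3p kept its sign, which leaving out 1 library could not change, since its groups did not overlap.

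The replicate numbers pair the libraries by number alone: the deviations of same-numbered libraries correlated at 0.0999. With the number as a replicate block, 8 members were called in deposited CPM and 0 after TMM scaling, 8 of 11 of the paralog list in deposited CPM and 0 after TMM scaling, where 72.4% of entries were called higher in deposited CPM and 2.09% in either direction after TMM scaling, and miR-92a-3p relative to its mates passed the threshold (0.92, limma adjusted p = 0.00178).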
